A study of Mus musculus with 12 samples.

Results

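The genes described are the cathepsins and the subunits of the vacuolar proton pump (V-ATPase), measured by bulk RNA-sequencing of 12 mouse tumors. Members were all symbols made of Cts and a single letter, and all symbols that begin with Atp6v0 or Atp6v1. This rule found 41 genes among 34678 symbols, of which 18 were cathepsins and 23 carried a V-ATPase name. The 27 members with a mean of at least 1 FPKM (fragments per kilobase of transcript, scaled to the mapped fragments of each library) are described in full. They were 3 leukocyte cathepsins (Ctss, Ctsc and Ctsw), 8 other cathepsins and 16 V-ATPase subunit genes.

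Cathepsins are proteases that work mainly in lysosomes, the acidic compartments in which cells break down proteins, lipids and sugars. Most are cysteine proteases of the papain family, while cathepsin D and cathepsin E are aspartic proteases, and cathepsin A and cathepsin G are serine proteases. The V-ATPase acidifies the lysosome. Its V1 sector in the cytosol splits ATP, and its V0 sector in the membrane carries protons across. Palbociclib, an inhibitor of the cell cycle kinases CDK4 and CDK6, is a weak base known to accumulate in acidic lysosomes. Cathepsin S trims the invariant chain of MHC class II in antigen-presenting cells, cathepsin C activates the granule proteases of lymphocytes, neutrophils and mast cells, and cathepsin W is typical of cytotoxic T cells and natural killer (NK) cells.

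The tumors were subcutaneous LLC1-shLkb1 tumors in C57BL/6 mice, 3 per arm, collected after 2 weeks of treatment. The mice were aged 6 to 8 weeks at the start of the experiment. LLC1-shLkb1 is the Lewis lung carcinoma line with a short hairpin against Lkb1 (Stk11), a tumor suppressor kinase. The vehicle arm received a control IgG antibody (clone 2A3), the palbociclib arm 100 mg/kg by mouth on the first days of each weekly cycle, the anti-PD-1 arm 200 µg per mouse of clone RMP1-14 by intraperitoneal injection, and the combination arm both agents. All 4 arms carry the same hairpin, and mice of both sexes were used in the study. Nothing in the labels gives the sex, litter or batch of a tumor. The p-values measure the spread between these tumors.

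Depth was estimated at 14900000 to 20300000 fragments per tumor, and replicates of an arm correlated at r = 0.95 to 0.99 across genes on the log scale. Stk11 was listed at 7.90 to 11.5 FPKM in the 12 tumors, without a tumor lacking the hairpin to compare it with. Markers of other tissues were high in some tumors. Adipose markers summed to 1194 FPKM in combination replicate 1 and 482 in palbociclib replicate 1, while no tumor without palbociclib exceeded 4.76. Skeletal muscle markers reached 166 FPKM in palbociclib replicate 3 and 155 in combination replicate 2, and skin markers 377 in palbociclib replicate 2. Among tumors not given palbociclib, skeletal muscle markers were at 56.1 FPKM in vehicle replicate 1 and 11.5 in anti-PD-1 replicate 1. Among carcinoma markers Krt8 supplied most of the summed level, while Krt19 was at 0 in 4 tumors.

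RefSeq promoters (250 bases before to 50 after each gene's start, GRCm38.p6) were listed for 18 of the 27 members. They were searched on both strands for TCACGTGA, a palindrome of the kind bound by the lysosomal regulators TFEB and TFE3, and for GAGGAAGT, a purine-rich motif of the kind bound by the myeloid factor PU.1. TCACGTGA was found in 5 of the 18 members and in 0.974% of all 32851 promoters. GAGGAAGT was found in Ctss and Ctsc and in 3.20% of all promoters. The shorter core CACGTG, which every TCACGTGA holds, was found in 7 of the 18 members and in 7.15% of all promoters. The windows below show each match in capitals, read 5′ to 3′ on the strand of the gene, to place the searched letters at members described further on:
Ctss, chr3:95526773-95526802, plus strand: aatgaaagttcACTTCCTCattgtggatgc
Ctsc, chr7:88277923-88277952, plus strand: gtcactaactaACTTCCTCaggccacctcg
Ctsd, chr7:142387908-142387937, minus strand: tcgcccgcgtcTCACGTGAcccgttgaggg
Ctsa, chr2:164833749-164833778, plus strand: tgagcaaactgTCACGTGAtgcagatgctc
Ctsa, chr2:164833766-164833795, plus strand: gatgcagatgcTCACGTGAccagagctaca
Atp6v0d1, chr8:105566050-105566079, minus strand: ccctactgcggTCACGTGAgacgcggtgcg
Atp6v0e, chr17:26676387-26676416, plus strand: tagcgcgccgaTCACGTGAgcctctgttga
Atp6v1a, chr16:44139373-44139402, minus strand: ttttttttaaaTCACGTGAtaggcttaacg

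In Ctss and Ctsc the motif lies in its reverse complement, ACTTCCTC, which begins 2 bases before the start of Ctss and 151 bases before that of Ctsc. In Ctsd the palindrome begins 99 bases before the start. Ctsa holds the palindrome 13 bases before its start and again just after it. The match in Atp6v1a lies 132 bases before the start and that in Atp6v0d1 4 bases before it. All starts here are those of the RefSeq promoters. In GENCODE M21 the genes Ctsd, Ctsa, Atp6v0e and Atp6v1a begin further upstream, and their matches lie inside the gene spans. These matches are letters in a window, and no binding was measured.

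Levels differed widely between members. The tumors expressed the endolysosomal proteases Ctsl (mean 433 FPKM), Ctsz (298), Ctsb (264) and Ctsd (177) most, and these 4 genes supplied 76.9% to 93.3% of the summed FPKM of the 11 cathepsins described. Cathepsins L and B are cysteine proteases, cathepsin Z is a carboxypeptidase and cathepsin D is the main aspartic protease of lysosomes. Ctsl lay above Ctsz, and Ctsb above Ctsd, in 12 of 12 tumors, while Ctsz lay above Ctsb in 11. Ctss followed with a mean of 142 FPKM, then Ctsa (25.1), the protective protein of lysosomal sialidase and β-galactosidase. Ctsc averaged 22.4 FPKM, Ctsk 5.39, Ctsh 4.99, Ctso 3.69 and Ctsw 2.17. Ctsk and Ctsh could not be ordered, since Ctsk was the higher of the pair in only 7 of 12 tumors.

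V-ATPase subunit genes lay between 1.63 and 89.8 FPKM. The V1 stalk genes Atp6v1g1 (89.8), Atp6v1d (60.2) and Atp6v1f (47.9) were highest and kept that order in 12 of 12 tumors. Atp6v1c1 (33.7) and the V0 gene Atp6v0d1 (30.7) were next, in that order in 9 of 12 tumors. The proton-carrying ring gene Atp6v0c (20.8) and its ring partner Atp6v0b (19.7) were close, with Atp6v0c higher in 7 of 12 tumors. The genes of the ATP-binding head, Atp6v1b2 (16.6) and Atp6v1a (14.8), were also close, with Atp6v1b2 higher in 8 of 12 tumors. The regulatory V1 subunit Atp6v1h averaged 5.22 FPKM. The membrane genes Atp6v0e2 (2.48) and Atp6v0d2 (1.63) were lowest.

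**Figure D1:**
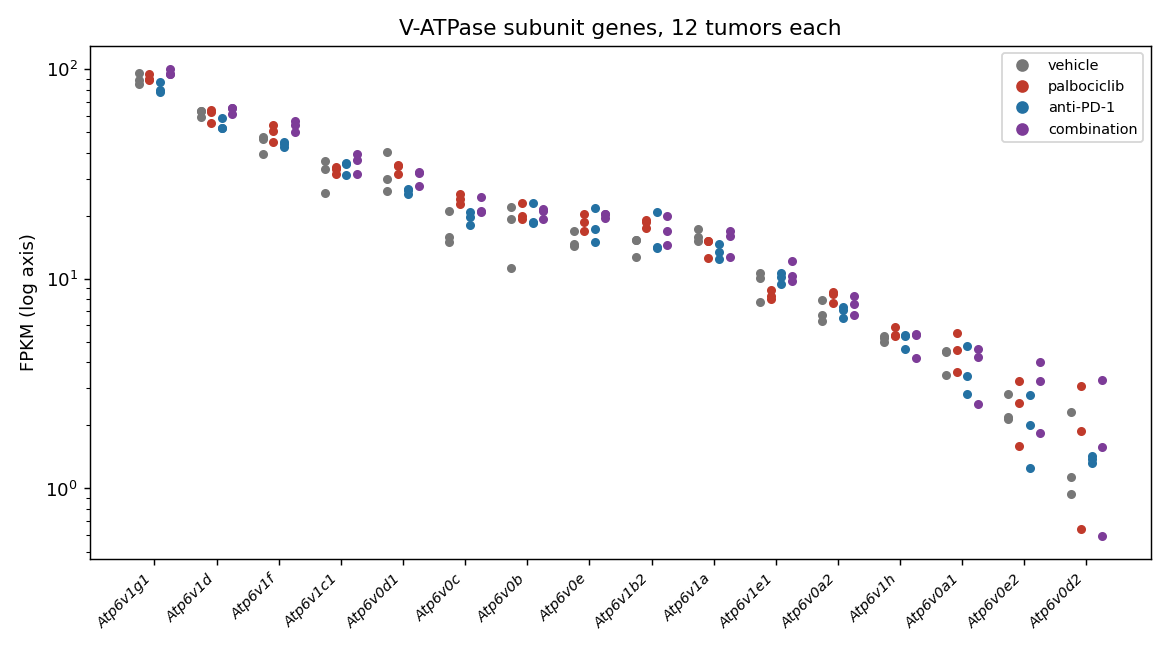
FPKM (log axis) of the 16 V-ATPase subunit genes, ordered by mean, with 1 point per tumor colored by arm (3 tumors per arm). Points of the 4 arms lie close together for most genes, and Atp6v0d2, the lowest at 0.595 to 3.29 FPKM, spreads most.

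Where a subunit has several genes, FPKM, which is corrected for length, shows which of them was the most expressed. Atp6v1b2 supplied 99.9% of subunit B, Atp6v1c1 99.9% of subunit C, Atp6v1g1 99.8% of subunit G and Atp6v1e1 100% of subunit E. The kidney-type genes Atp6v1b1 and Atp6v0a4 were above 0 in 2 and 11 tumors and never above 0.141 and 0.210 FPKM. For the d subunit, Atp6v0d1 supplied 94.9% on average and Atp6v0d2, known from osteoclasts and macrophages, 1.79% to 9.20%. For the a subunit, which targets the pump to a membrane, Atp6v0a2 supplied 18.5% and Atp6v0a1 10.1%. The largest share, 71.3%, came from Tcirg1, the a3 gene of lysosomes and osteoclasts, which the symbol rule does not reach.

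The main comparison asked how transcript levels differed between the 6 tumors given palbociclib, alone or with anti-PD-1, and the 6 tumors given vehicle or anti-PD-1 alone. The palbociclib effect averages 2 differences of log2(FPKM + 0.1), palbociclib minus vehicle and combination minus anti-PD-1. No member passed the test (adjusted p under 0.05 with limma and Benjamini-Hochberg adjustment), where 0.313% of the 15350 genes tested did. At an unadjusted p under 0.05, 10 of the 27 members were higher and none lower, against 14.1% of all genes higher and 6.44% lower. These were the 3 leukocyte cathepsins, 3 of the 8 other cathepsins (Ctsh, Ctsb and Ctso) and 4 of the 16 V-ATPase genes (Atp6v0c, Atp6v1f, Atp6v0e and Atp6v1g1). The split over all genes depends on scaling. With quantile normalization between tumors, 8.89% of genes were higher and 11.9% lower, and 6 members were higher (Ctss, Ctsc, Ctsw, Ctsh, Atp6v0c and Atp6v1f) and none lower.

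The median log2 effect was 1.34 over the leukocyte cathepsins, 0.24 over the other cathepsins and 0.15 over the V-ATPase genes, beside 0.055 over all genes tested. As folds these medians are 2.54, 1.18, 1.11 and 1.04. The spread followed the same order, with a median standard deviation within arms of 0.885, 0.276 and 0.163 on the log2 scale. For no member did all 6 tumors given palbociclib lie above all 6 others, which 1.02% of all genes did.

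**Figure D2:**
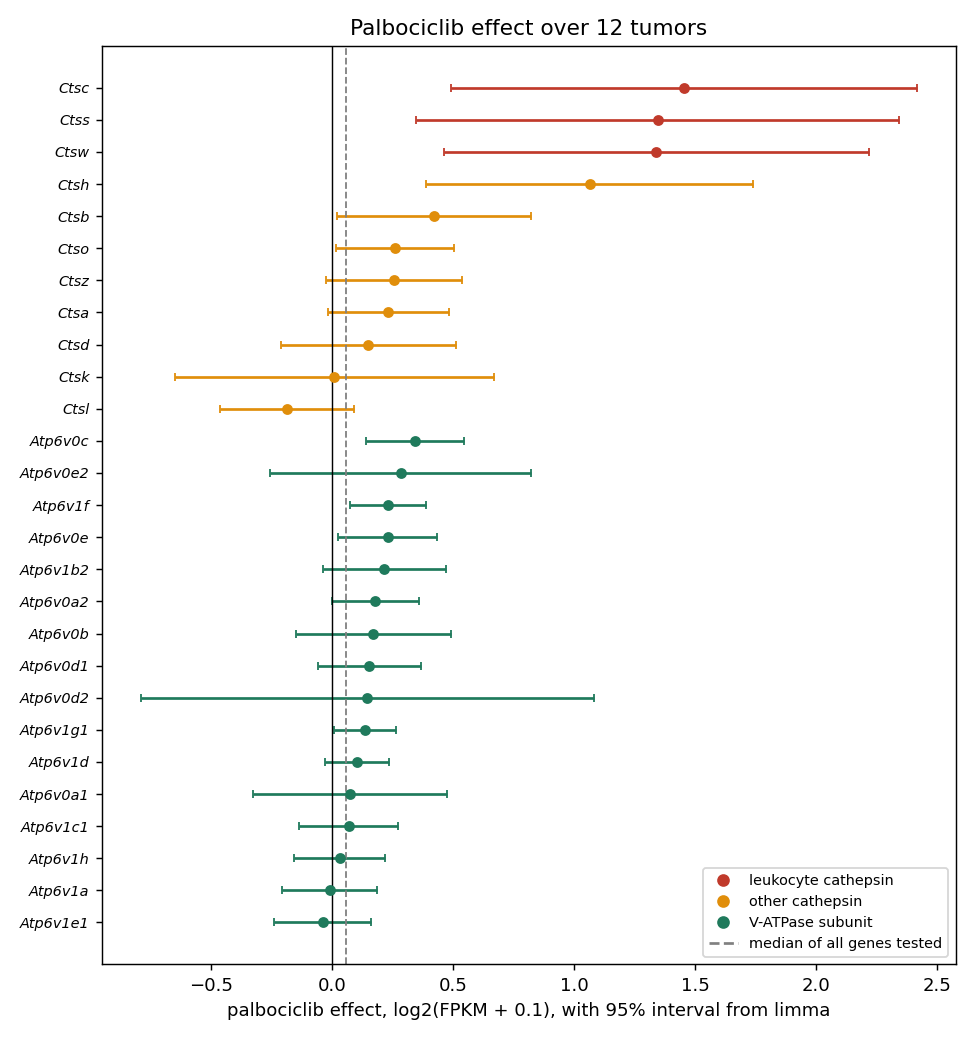
Palbociclib effect on log2(FPKM + 0.1) for the 27 members with 95% intervals from limma, grouped as leukocyte cathepsins, other cathepsins and V-ATPase subunit genes over 12 tumors. The 3 leukocyte cathepsins and Ctsh lie above 1, and the V-ATPase genes lie between -0.040 and 0.34, near the dashed line at 0.055 for the median of all genes tested.

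Ctss (chr3:95526786-95556403, plus strand, GRCm38) was listed at 115, 97.8 and 44.3 FPKM in vehicle replicates 1 to 3 and at 162, 259 and 160 in the palbociclib tumors. In the anti-PD-1 tumors it was at 150, 39.3 and 44.2 FPKM, and in the combination tumors at 267, 64.5 and 300.1. Anti-PD-1 replicate 1 was high and combination replicate 2 low within their arms, and 5 of the 6 tumors given palbociclib lay above all 6 others. The palbociclib effect on Ctss was 1.34 on the log2 scale (SE 0.45, 2.54-fold, 95% interval 1.27 to 5.07, n = 6 against 6, adjusted p = 0.151 from limma).

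Ctsc (chr7:88278085-88310888, plus strand) was at 22.8, 8.47 and 6.81 FPKM in vehicle tumors, 22.8, 37.8 and 28.9 in palbociclib tumors, 23.3, 5.93 and 8.21 in anti-PD-1 tumors and 50.8, 12.9 and 40.0 in combination tumors. The high anti-PD-1 tumor and the low combination tumor were the same replicates as for Ctss, and vehicle replicate 1 reached the level of the lowest palbociclib tumor. The effect was 1.45 on the log2 scale (SE 0.44, 2.74-fold, 95% interval 1.40 to 5.33, adjusted p = 0.125 from limma).

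Ctsw (chr19:5465043-5468507, minus strand) was the scarcest of the 3 and rested on an estimated 17 to 172 fragments per tumor. It was at 2.46, 1.47 and 0.440 FPKM in vehicle tumors, 2.50, 2.89 and 5.49 in palbociclib tumors, 1.36, 0.895 and 0.701 in anti-PD-1 tumors and 3.34, 1.18 and 3.36 in combination tumors. All but combination replicate 2 of the tumors given palbociclib lay above the 6 others. The effect was 1.34 on the log2 scale (SE 0.40, 2.53-fold, 95% interval 1.38 to 4.65, adjusted p = 0.123 from limma). Ctsw shares 9 exon bases, 0.477% of its exons, with Fibp on the opposite strand.

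**Figure D3:**
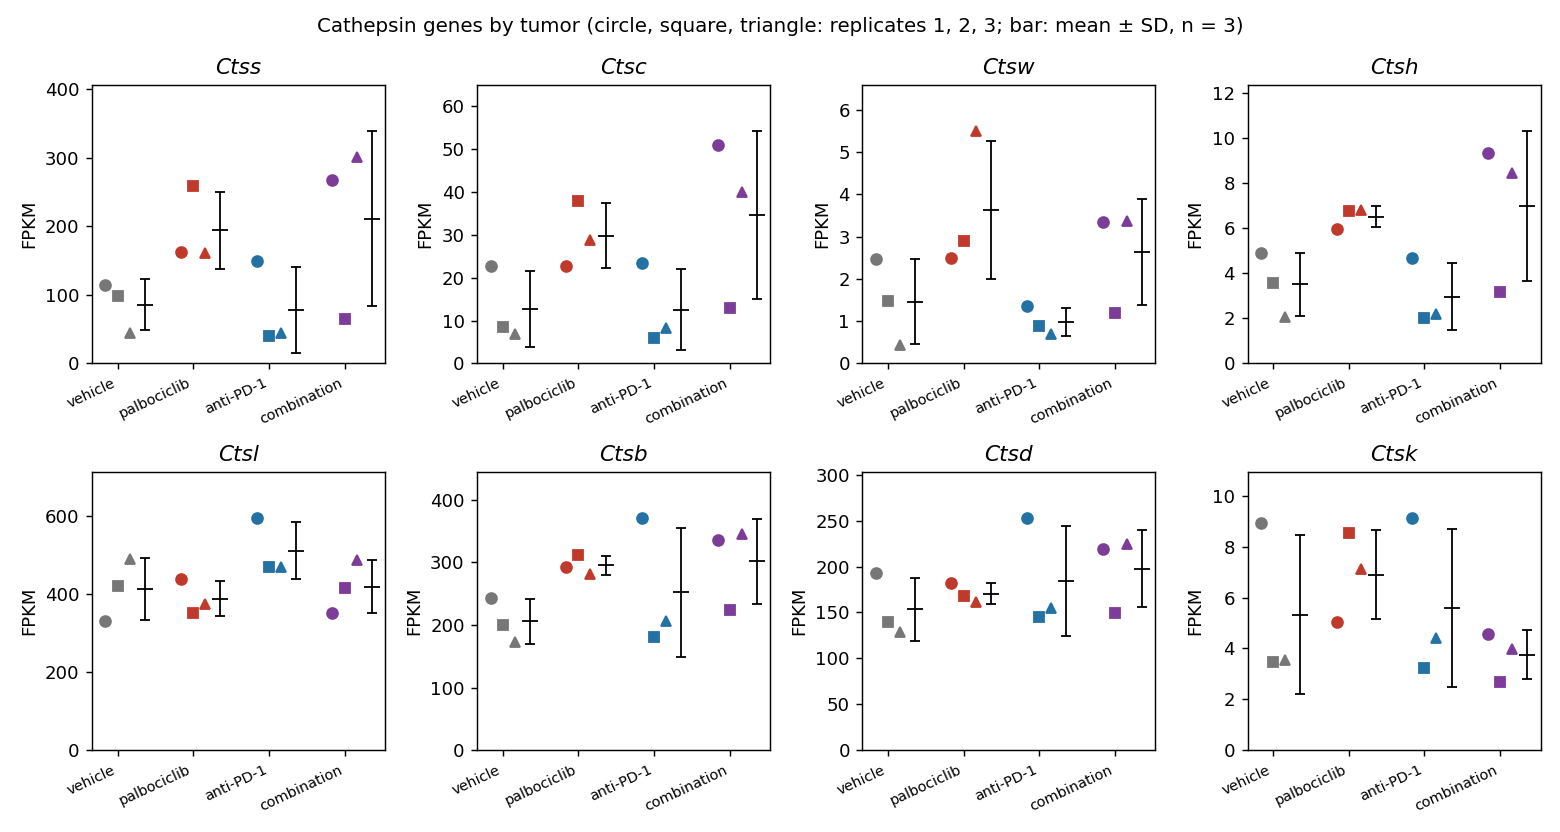
FPKM of 8 cathepsin genes in each of 12 tumors by arm, with the mean ± SD of each arm (n = 3) as a bar beside the points. For Ctss, Ctsc, Ctsw and Ctsh combination replicate 2 (square) lies with the tumors not given palbociclib, while Ctsl shows no such split and Ctsk is lower in the 3 combination tumors (2.70 to 4.58 FPKM) than in the 3 palbociclib tumors (5.06 to 8.54).

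Marker genes of white blood cells were read beside these 3 genes. All 12 macrophage markers were detected in every tumor, and 6 of them were higher and Cd14 lower at an unadjusted p under 0.05, with a median effect of 0.89. The shares over all genes tested were 14.1% higher and 6.44% lower, here and for the other cell markers below. Their summed level was 366.1 to 1646 FPKM in vehicle, 1060 to 1820 in palbociclib, 391.9 to 1355 in anti-PD-1 and 835 to 2027 in combination tumors. Of 11 T and NK cell markers 7 were higher, with summed levels of 17.1 to 31.3, 30.2 to 45.7, 16.1 to 27.7 and 14.3 to 37.0 FPKM, and Cd8b1 was at 0 in a single tumor. Neutrophil markers went the other way, with 4 of 6 lower and summed levels of 31.7 to 539, 15.3 to 33.2, 47.5 to 276 and 14.2 to 88.8 FPKM.

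Of 6 mast cell markers tested 4 were higher, against 14.1% of all genes. Their summed level ran from 0.842 FPKM in anti-PD-1 replicate 2 to 107 in palbociclib replicate 3. Of 6 dendritic cell markers tested Clec10a was higher, and Xcr1 was at 0 in 3 tumors. Of 3 B cell markers tested Cd22 and Cd79b were higher, and Ms4a1 was at 0 in 6 tumors. The leukocyte gene Ptprc was at 0.841 to 3.36 FPKM, lowest in combination replicate 2. With an effect of 0.56, Ptprc was not called higher at an unadjusted p under 0.05. None of these marker genes passed the adjusted test, and their part in the cathepsin values was not tested. Fewer cells of a type and less RNA per cell cannot be told apart in bulk tumors. Measured against Csf1r, the receptor for macrophage growth factor, Ctss had a ratio of 5.04 in vehicle replicate 1 to 13.8 in combination replicate 3. That ratio was 11.4 in vehicle replicate 3 and 6.10 in combination replicate 2. Against C1qa instead, the ratio of Ctss was lowest in palbociclib replicate 3 (0.522) and highest in vehicle replicate 3 (1.73).

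**Figure D4:**
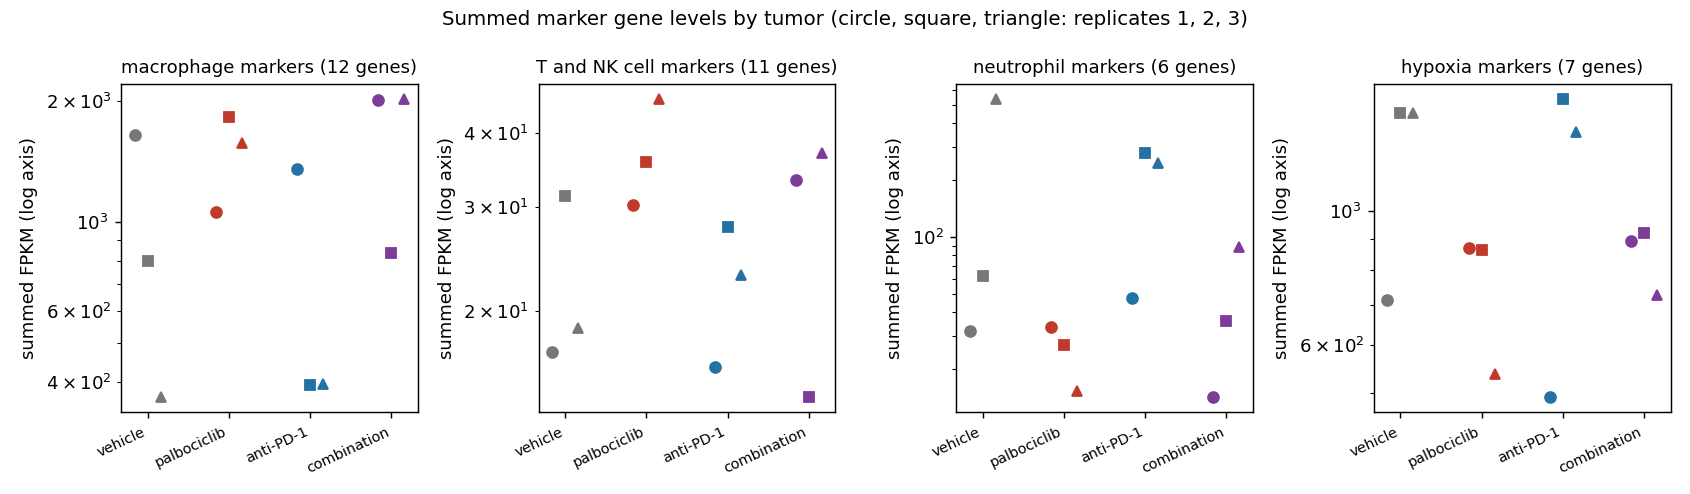
Summed FPKM (log axis) of macrophage, T and NK cell, neutrophil and hypoxia markers in each of 12 tumors by arm. Anti-PD-1 replicate 1 (circle) is high for macrophage markers (1355 FPKM) and low for hypoxia markers (493), and the other 2 anti-PD-1 tumors lie at 391.9 and 396 FPKM for macrophage markers.

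Ctsh, an aminopeptidase counted with the other cathepsins, had values close to the leukocyte group. It was at 4.88, 3.58 and 2.08 FPKM in vehicle tumors, 5.96, 6.77 and 6.82 in palbociclib tumors, 4.67, 2.01 and 2.17 in anti-PD-1 tumors and 9.32, 3.19 and 8.43 in combination tumors. Again all tumors given palbociclib but combination replicate 2 lay above the 6 others. The effect was 1.06 on the log2 scale (SE 0.31, 2.09-fold, 95% interval 1.31 to 3.34, adjusted p = 0.116 from limma).

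Ctsb was at 243, 199.9 and 173 FPKM in vehicle tumors, 293, 312 and 281 in palbociclib tumors, 370.4, 180.1 and 206 in anti-PD-1 tumors and 335, 224 and 346 in combination tumors. The palbociclib tumors lay above the vehicle tumors, as for 12.9% of all genes, but anti-PD-1 replicate 1 had the highest value of all 12. The effect was 0.42 (SE 0.18, 1.34-fold, 95% interval 1.01 to 1.76, adjusted p = 0.224 from limma). Ctsb shares 12.8% of its exon bases with Fdft1 on the opposite strand, and whether the counting used strand is not given in the sources used here.

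Ctsz was at 294, 240.1 and 233 FPKM in vehicle tumors, 295, 326 and 329 in palbociclib tumors, 388.97, 253 and 234 in anti-PD-1 tumors and 315, 302 and 364.1 in combination tumors. The effect was 0.25 (95% interval -0.026 to 0.54 on the log2 scale, adjusted p = 0.282 from limma). Ctsd was at 193, 139 and 129 FPKM in vehicle tumors, 183, 168 and 161 in palbociclib tumors, 253, 145 and 155 in anti-PD-1 tumors and 220, 149 and 225 in combination tumors. Its arms overlapped, with an effect of 0.15 (95% interval -0.21 to 0.51, adjusted p = 0.625 from limma).

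Ctsl, the most abundant cathepsin, was the only described cathepsin with an effect below 0. It was at 330, 421 and 490 FPKM in vehicle tumors, 438, 352 and 375 in palbociclib tumors, 595, 470.4 and 469.6 in anti-PD-1 tumors and 353, 416 and 488 in combination tumors. All arms overlapped except palbociclib and anti-PD-1, a separation that was not counted over all genes. The effect was -0.19 (SE 0.13, 95% interval -0.46 to 0.091, adjusted p = 0.417 from limma). The ratio of Ctsl to Ctss therefore ranged from 1.32 in combination replicate 1 to 11.97 in anti-PD-1 replicate 2.

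Ctsk, a collagen-degrading cathepsin known from osteoclasts and fibroblasts, lies 17424 bases before Ctss on the same strand of chromosome 3. Its effect was 0.0090 (95% interval -0.65 to 0.67 on the log2 scale, adjusted p = 0.989 from limma), beside 1.34 for Ctss. Ctsk was at 8.92 FPKM in vehicle replicate 1 and 9.12 in anti-PD-1 replicate 1, and at 3.24 to 4.43 in the other 4 tumors not given palbociclib. The ratio of Ctss to Ctsk ran from 9.97 to 75.8. Of the 6 osteoclast markers only 2, Acp5 and Mmp9, passed the filter on low values, and Calcr was at 0 in 11 tumors. At an unadjusted p under 0.05, 1 of these 2 was lower and none higher. Of 7 fibroblast markers 2 were lower and none higher, with a median effect of 0.27. The shares over all genes were 14.1% higher and 6.44% lower, and the part of these markers in the Ctsk values was not tested. Ctsa and Ctso had effects of 0.23 and 0.26 (adjusted p = 0.272 and 0.222 from limma).

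Among V-ATPase genes the effect was above 0 for 14 of 16, against 59.8% of all genes tested. Their summed level moved within 344 to 428 FPKM over the 12 tumors, a 1.25-fold range, while the summed leukocyte cathepsins ranged from 46.1 to 343 FPKM, 7.44-fold. The upper limit of the 95% interval was under 1 on the log2 scale, a doubling, for 15 of the 16 genes. The exception was Atp6v0d2 (effect 0.14, 95% interval -0.79 to 1.08), which rested on an estimated 28 fragments in its lowest tumor.

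Atp6v0c (chr17:24163866-24169702, minus strand), which encodes the proteolipid ring that carries protons, had the smallest p of the 27. It was at 21.0, 14.9 and 15.8 FPKM in vehicle tumors, 22.9, 25.4 and 24.1 in palbociclib tumors, 20.8, 18.0 and 19.7 in anti-PD-1 tumors and 21.0, 21.0 and 24.6 in combination tumors. Vehicle replicate 1 reached the level of the lowest combination tumors, and 5 of the 6 tumors not given palbociclib lay below all 6 that were. The effect was 0.34 on the log2 scale (SE 0.091, 1.27-fold, 95% interval 1.10 to 1.46, adjusted p = 0.102 from limma). The pseudogenes Atp6v0c-ps1 and Atp6v0c-ps2 match the transcript at 97.2% and 99.8% of 465 bases, so reads from matching stretches of the 3 genes cannot be told apart. Atp6v0c-ps1 was listed above 0 in 1 tumor, and Atp6v0c-ps2 was not analysed here.

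Atp6v1f, a subunit of the rotating V1 stalk, was at 46.5, 47.3 and 39.2 FPKM in vehicle tumors, 44.96, 50.99 and 54.0 in palbociclib tumors, 44.9, 44.2 and 42.6 in anti-PD-1 tumors and 54.3, 49.996 and 56.4 in combination tumors. The combination tumors lay above the vehicle tumors, as for 10.8% of all genes, and above the anti-PD-1 tumors, as for 11.4%. The effect was 0.23 (SE 0.071, 1.17-fold, 95% interval 1.05 to 1.31, adjusted p = 0.128 from limma). Atp6v0e, a small membrane subunit, had an effect of 0.23 (adjusted p = 0.206) and the stalk gene Atp6v1g1 of 0.14 (adjusted p = 0.220). The head genes stood side by side at 0.22 for Atp6v1b2 and -0.011 for Atp6v1a (adjusted p = 0.314 and 0.956), all from limma.

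**Figure D5:**
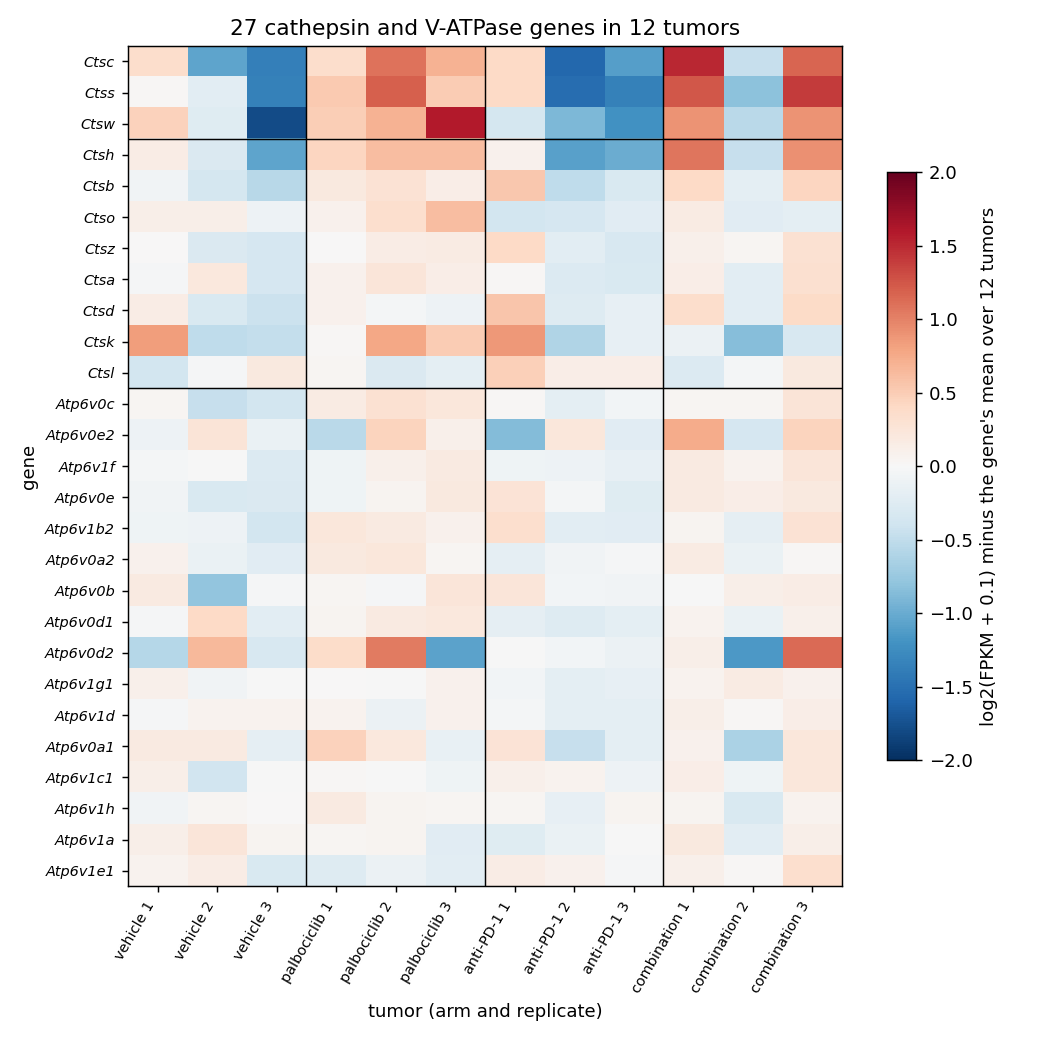
Log2(FPKM + 0.1) of each of the 27 genes minus its own mean over 12 tumors, with tumors in columns by arm and genes in rows by class. The leukocyte cathepsins and Ctsh are low in vehicle replicate 3, anti-PD-1 replicates 2 and 3 and combination replicate 2, while most V-ATPase rows stay near 0.

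The 2-arm comparisons split this effect. Between palbociclib and vehicle no member passed the adjusted test, which 0.143% of all genes did. Of the 27, Atp6v0c (log2 difference 0.50), Ctsc (1.40) and Ctsw (1.44) were higher at an unadjusted p under 0.05, as were 9.43% of all genes. The 3 palbociclib tumors lay above the 3 vehicle tumors for 8 of 27 members, against 12.9% of all genes. These were Atp6v0c, Atp6v1b2, Atp6v1h, Ctsb, Ctsh, Ctss, Ctsw and Ctsz. Atp6v1a lay below in all 3 (difference -0.18, adjusted p = 0.505 from limma), as did 6.47% of all genes.

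Between the combination and anti-PD-1 no member passed either, where 0.00651% of genes did. Of the 27, Ctsc (1.501), Ctss (1.44), Ctsh (1.18), Atp6v1f (0.29), Atp6v1g1 (0.25) and Atp6v1d (0.24) were higher at an unadjusted p under 0.05, against 7.61% of all genes. The arms did not overlap for 5 V-ATPase genes, all higher with the combination (Atp6v0c, Atp6v0d1, Atp6v1d, Atp6v1f and Atp6v1g1), against 11.4% of all genes. None of the 11 described cathepsins was among them.

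Between the combination and vehicle no member passed the adjusted test (0.013% of genes did), and of the 27 Ctsc (1.43), Atp6v0e (0.40), Atp6v0c (0.37) and Atp6v1f (0.27) were higher at an unadjusted p under 0.05, against 8.64% of all genes. This comparison shares its vehicle tumors with the palbociclib comparison and its combination tumors with the one before. Between anti-PD-1 and vehicle no gene of the 15350 passed the adjusted test (0%), and of the 27 members Ctso alone was lower at an unadjusted p under 0.05 (-0.35), against 5.11% of all genes. With the replicate number as a block in a fit of these arms alone, the unadjusted p of Ctso was 0.0664 and again no gene passed the adjusted test (limma). Ctso encodes a little-studied cysteine cathepsin.

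Between the combination and palbociclib no member passed the adjusted test (0.00651% of genes did). At an unadjusted p under 0.05 the V1 stalk gene Atp6v1e1 was higher (0.35), against 1.06% of all genes, and Ctso was lower (-0.43), against 3.47%. Ctsk was lower in all 3 combination tumors than in all 3 palbociclib tumors (difference -0.86, adjusted p = 1 from limma), as were 9.15% of all genes.

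The interaction asks whether the palbociclib difference depended on anti-PD-1. No gene passed it after adjustment (0%), and 2 of the 31 members tested had an unadjusted p under 0.05, against 5.73% of all genes. These were Atp6v1d, a shaft subunit of the pump, and the scarce protease gene Ctsg, which is described with the members under 1 FPKM. Atp6v1d was at 59.2, 63.3 and 63.2 FPKM in vehicle tumors, 62.8, 55.3 and 63.7 in palbociclib tumors, 58.3, 52.2 and 52.6 in anti-PD-1 tumors and 65.3, 61.3 and 65.5 in combination tumors. The anti-PD-1 tumors were the lowest arm. The interaction was 0.27 on the log2 scale (adjusted p = 0.866 from limma).

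Atp6v1g1 was at 95.6, 85.0 and 89.3 FPKM in vehicle tumors, 89.9, 89.2 and 95.2 in palbociclib tumors, 86.5, 78.0 and 79.8 in anti-PD-1 tumors and 94.4, 100.02 and 95.1 in combination tumors, with an interaction of 0.22 (adjusted p = 0.880 from limma). Its 12 values lay within a 1.28-fold range. Atp6v1a was at 15.9, 17.3 and 15.2 FPKM in vehicle tumors, 15.1, 15.2 and 12.5 in palbociclib tumors, 12.4, 13.4 and 14.6 in anti-PD-1 tumors and 16.9, 12.7 and 15.9 in combination tumors, with an interaction of 0.34 (adjusted p = 0.880 from limma). Both single agents sat lower than vehicle for Atp6v1a without passing the test.

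Other lysosomal genes were read from lists chosen with earlier results of these data known. None of their genes passed the adjusted test in the palbociclib effect. Of 40 other lysosomal hydrolases and their activators, 17 were higher and none lower at an unadjusted p under 0.05, which was 42.5% against 14.1% of all genes, with a median effect of 0.16. The smallest p values were those of Naaa (effect 1.03, adjusted p = 0.0836), an acid amidase for fatty acid ethanolamides, and Gm2a (1.40, adjusted p = 0.0846), the activator of ganglioside breakdown. Gm2a was at 7.70, 4.82 and 3.46 FPKM in vehicle tumors, 11.5, 16.5 and 11.5 in palbociclib tumors, 7.22, 3.28 and 4.05 in anti-PD-1 tumors and 22.9, 5.63 and 16.3 in combination tumors, again with combination replicate 2 low.

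Of 28 lysosomal membrane proteins 5 were higher at an unadjusted p under 0.05 and none lower (17.9%), with a median of 0.091. The shares over all genes tested were 14.1% higher and 6.44% lower, here and for the lists that follow in this paragraph. Scarb2, the receptor that carries glucocerebrosidase to lysosomes, had an effect of 0.25 (adjusted p = 0.125) and Tpcn2, an ion channel of lysosomes, of 0.38 (adjusted p = 0.154). Of 11 mannose 6-phosphate sorting genes 3 were higher and none lower, led by the receptor M6pr (0.24, adjusted p = 0.168) and the transferase subunit Gnptg (0.23, adjusted p = 0.176). Of 14 accessory, assembly and a3 genes of the V-ATPase tested, Atp6ap2 was higher (0.22, adjusted p = 0.169) and Dmxl2, a partner in pump assembly, lower (-0.36, adjusted p = 0.221), all from limma.

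Of 11 cathepsin inhibitors 3 were higher and 1 lower at an unadjusted p under 0.05, against 14.1% and 6.44% of all genes. Cst3, the secreted inhibitor cystatin C, was at 173, 180.1 and 126 FPKM in vehicle tumors, 166, 207 and 244 in palbociclib tumors, 140.1, 146 and 123 in anti-PD-1 tumors and 198, 183 and 207 in combination tumors (effect 0.45, adjusted p = 0.0959). Stfa2l1, a stefin of neutrophils, had an effect of -2.27 (adjusted p = 0.133), beside the lower neutrophil markers given above, whose part in it was not tested.

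Of 18 tested regulators of the MiT-TFE factors and lysosomal mTORC1 scaffold genes, 2 were higher and 2 lower at an unadjusted p under 0.05. The shares over all genes were 14.1% higher and 6.44% lower, and the median of the list was 0.066. Those with the smallest p were the Ragulator genes Lamtor4 (0.38, adjusted p = 0.0884) and Lamtor1 (0.35, adjusted p = 0.107). Of 19 autophagy and lysosomal stress genes 2 were higher and 2 lower, against the same shares of all genes, with a median of -0.017. Trim16, a coordinator of the response to damaged lysosomes, was at 1.86, 1.49 and 1.71 FPKM in vehicle tumors, 2.83, 2.90 and 3.05 in palbociclib tumors, 2.28, 1.86 and 2.003 in anti-PD-1 tumors and 2.60, 3.58 and 2.46 in combination tumors. All 6 tumors given palbociclib lay above the 6 others, as for 1.02% of all genes (effect 0.61, adjusted p = 0.0522 from limma). Hmox1, heme oxygenase 1, had an effect of -1.49 (adjusted p = 0.0642), with 31.0 to 109 FPKM in tumors given palbociclib and 90.1 to 191 in the others. Hypoxia markers, of which 2 of 7 were lower at an unadjusted p under 0.05 against 6.44% of all genes, had summed levels that were also read. These were 539 to 919 FPKM in tumors given palbociclib and 493 to 1531 in the others. The part of hypoxia in the values of Trim16 and Hmox1 was not tested.

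The other 14 members lay under 1 FPKM. Ctsf, the nearest to the floor at a mean of 0.666, was at 0.109 to 2.24 FPKM, beside Atp6v0d2 at 1.63 as the lowest gene above it. Its palbociclib effect was 1.09 (unadjusted p = 0.0470, adjusted p = 0.238 from limma). Ctsg, a granule protease of neutrophils and mast cells, averaged 0.376 FPKM on 1 to 24 estimated fragments per tumor. It was at 0.129, 0.583 and 0.295 FPKM in vehicle tumors, 0.185, 0.336 and 0.241 in palbociclib tumors, 1.25, 0.489 and 0.7003 in anti-PD-1 tumors and 0.125, 0.116 and 0.0616 in combination tumors. The highest combination value, in replicate 1, and the lowest value of the other arms, in vehicle replicate 1, each rested on 2 estimated fragments. These 2 levels cannot be told apart. The palbociclib effect on Ctsg was -1.15 (SE 0.30, adjusted p = 0.0950 from limma), with the smallest unadjusted p of the 31 members tested (0.0026). Between the combination and anti-PD-1 the difference was -2.11 on the log2 scale (unadjusted p = 0.00038, adjusted p = 0.306 from limma), where 4.21% of all genes were lower at an unadjusted p under 0.05. Between the combination and vehicle it was -0.99 (adjusted p = 0.277), where 8.31% of genes were lower, and between anti-PD-1 and vehicle 1.12 (adjusted p = 0.580), where 3.28% were higher, both at an unadjusted p under 0.05 in limma. The interaction was -1.93 (unadjusted p = 0.0077, adjusted p = 0.788 from limma). The neutrophil and mast cell marker levels given above were not tested for a part in these values. Atp6v1g2 (mean 0.196), a neuronal subunit, and Ctse (0.1002) also passed the filter on low values, so 31 of the 41 members were tested. Atp6v0a4, Atp6v1c2, Atp6v1b1, Atp6v0c-ps1 and Ctsq did not pass it, and Atp6v1e2, Atp6v1g3, Ctsj, Ctsm and Ctsr were listed at 0 in all 12 tumors.

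The calls depended on single tumors, counted here over the 27 described members. Without anti-PD-1 replicate 1, 5 members passed the adjusted test in the palbociclib effect (Ctsb, Ctsc, Ctsh, Ctss and Ctsz), where 5.02% of all genes did. Without vehicle replicate 1, Atp6v0c, Ctsc and Ctsw passed, where 4.53% of genes did, and without combination replicate 2 Ctsh passed, where 1.7% did. Markers of other tissues were highest in combination replicate 1 (adipose), palbociclib replicate 3 (muscle) and palbociclib replicate 2 (skin). Without these 3 tumors no member passed, and of the 27 only Atp6v0c was higher at an unadjusted p under 0.05 (effect 0.32), against 4.52% of all genes. The effects were then 1.08 for Ctss, 1.08 for Ctsc, 1.004 for Ctsw and 0.86 for Ctsh on the log2 scale. Without combination replicates 1 and 2 and palbociclib replicate 2, which also held high levels of such markers, no member passed, and 7 were higher at an unadjusted p under 0.05 against 7.25% of all genes. The effects were then 1.63 for Ctss, 1.57 for Ctsc, 1.64 for Ctsw and 1.25 for Ctsh. Each of these fits left 1 arm with a single tumor, palbociclib in the first and combination in the second, which was assumed to vary like the tumors of the other arms.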

How the data were processed

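Library strandedness is not given in the sources used here. For each tumor the authors deposited FPKM values of 34745 gene entries, without counts. The submitters' processing notes name HISAT2 and GRCm38 (mm10) without versions. The counting tool and annotation are not given in the sources used here. Depth was inferred from the smallest differences between FPKM values in 3177 genes, at 14900000 to 20300000 fragments per tumor, and together with 3 tumors per arm it limits the precision.

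For 67 repeat symbols only the entry of the highest mean was used, leaving 34678. The 15350 genes whose FPKM averaged 0.1 or more were put on a log2(FPKM + 0.1) scale and fitted in limma 3.58.1 (R 4.3.3; 1 mean per arm, no covariate, eBayes with a trend, Benjamini-Hochberg adjustment over all genes tested, threshold 0.05, two-sided). A fold change on this scale understates that of low genes. The 95% intervals come from the same fit and are not adjusted. On simulated data of the palbociclib effect, 152 of 200 genes given a log2 change of 1 were recovered, with 4 false calls among 15114 genes. Those 200 genes were picked at random, and genes varied independently of each other. The median standard deviation within arms was 0.239 over all genes tested and 0.885 over the leukocyte cathepsins. This recovery therefore does not carry over to the leukocyte cathepsins. Log2 changes under 1 were not simulated. Recovery is thus not known at the sizes seen for V-ATPase genes (-0.040 to 0.34) or the other cathepsins (median 0.24).

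The members and gene lists were chosen with earlier results of these data known. Values by tumor are given for Ctss, Ctsw and Ctsc, the 5 members with the highest mean FPKM, the 6 with the smallest p in the palbociclib effect and the 3 with the smallest p in the interaction. From each other lysosomal list the 2 genes with the smallest p are named. Other genes were named after their values were seen.

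The labels tie no replicate number to a shared animal, litter or day. Of 18 pairs of same-numbered tumors, 7 had a correlation of their deviations from the arm means above 0.1 (range -0.21 to 0.45), so the numbers were not taken to pair the tumors across the 4 arms. All 3 vehicle and anti-PD-1 pairs lay above 0.1 (0.13 to 0.45), so that comparison was also fitted with the replicate block on its 2 arms, a choice made after seeing the data. Positions come from GENCODE M21 and promoters from RefSeq, both on GRCm38. The alternatives tried are listed under the dependence on processing.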

Additional observations from a re-analysis of the deposited data

How the results depend on the processing

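Across the other settings (pseudocounts of 1 and 0.01, a filter at a mean FPKM of 1 or none, rescaling to TPM, quantile normalization, no trend in eBayes, members down to a mean FPKM of 0.1, leaving out combination replicates 1 and 2 and palbociclib replicate 2 together, or, chosen after seeing the data, the tumor highest for each of adipose, muscle and skin markers) no member passed the adjusted test in any of the 7 contrasts, nor when only the 2 arms of a contrast entered the fit. Leaving out each tumor in turn gave 0 to 5 members in the palbociclib effect (3 without vehicle replicate 1, 5 without anti-PD-1 replicate 1, 1 without combination replicate 2) and 0 in the other 6 contrasts. With the replicate block, which the pairing check did not call for, 0 members passed the palbociclib effect, while the count over all genes went from 48 to 129. Between anti-PD-1 and vehicle, whose same-numbered tumors deviated together, a block on these 2 arms left 0 members and 0 genes passing. In no contrast did the block change an adjusted call among the 27 described members. The counts of members in all these refits cover the 27 described members. For Ctsg, Ctsf, Ctse and Atp6v1g2 only the main fit was counted. The count over all genes in the palbociclib effect was 70 with the higher filter, 11 without a filter, 36 in TPM, 0 without a trend, 4 without combination replicates 1 and 2 and palbociclib replicate 2, and 21 without the tumors highest for the tissue markers. The medians kept their direction, at 0.12 to 0.20 for V-ATPase genes and 0.19 to 0.29 for the cathepsins other than Ctss, Ctsw and Ctsc when each tumor was left out, and at 0.078 and 0.18 with quantile normalization.

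Some effects changed sign. Ctsk was at -0.011 in TPM, -0.052 with quantile normalization and -0.020 without combination replicates 1 and 2 and palbociclib replicate 2, Atp6v1h at -0.031 with quantile normalization, and Atp6v1a and Atp6v1e1 at 0.0071 and 0.033 without the same 3 tumors. Without the tumors highest for the tissue markers Ctsk was at -0.27 and Atp6v0e2 at -0.10. Over the 12 fits without 1 tumor, Ctsk ran from -0.15 to 0.23, Atp6v0a1 from -0.0099 to 0.21, Atp6v0d2 from -0.13 to 0.44, Atp6v1a from -0.052 to 0.051, Atp6v1c1 from -0.0067 to 0.12, Atp6v1e1 from -0.11 to 0.0049 and Atp6v1h from -0.0040 to 0.092. The cause was not tested.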
